A study of Mus musculus with 6 samples.

Results

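The 4 genes described here belong to the metal response of mouse cells. They are the metallothionein genes Mt1 and Mt2, Mtf1, which encodes the transcription factor MTF-1, and Slc30a1, which encodes the zinc exporter ZnT1. They were picked out by gene name from 55291 genes listed, and all 4 were among the 14290 genes with enough reads to be tested. RNA-seq had been run on wild-type mouse embryonic fibroblasts (WT MEFs), which carry Mfn1 and Mfn2, came from another laboratory and were grown in DMEM with serum. The 6 libraries were 2 treated with vehicle, 2 with MASM7 and 2 with MFI8. MASM7 is a small molecule that activates mitofusins, the outer-membrane GTPases that tether and fuse mitochondria, and MFI8 is a small molecule that inhibits them. MASM7 was given at 1 μM and MFI8 at 20 μM, each for 6 h, from solutions in DMSO. The duration and the solvent content of the vehicle treatment are not given in the labels. Nothing in the labels says whether the 2 libraries of a group came from separate cultures, so the spread between them may be technical.

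Metallothioneins are small, cysteine-rich cytosolic proteins that bind zinc and copper, buffer them, and also bind toxic cadmium. MTF-1 is the zinc-sensing factor of the cell: when free zinc increases it binds metal response elements in the promoters of Mt1, Mt2 and Slc30a1 and activates them. ZnT1 then carries zinc out across the plasma membrane, while the metallothioneins hold it inside. The metallothionein genes are also known to respond to oxidative stress and to glucocorticoids, and mRNA of these genes is commonly read as a reporter of the metal response.

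The promoters were examined first, because metal response elements are the sequence feature that links 3 of these 4 genes. RefSeq promoter windows of 300 bases (build GRCm38.p6, 250 bases before to 50 after the start, all 4 genes on the + strand) were searched on both strands for the metal response element core, written TGCACNC or TGCGCNC. Mt2 held 4 matches, Mt1 held 3, Slc30a1 held 2 and Mtf1 held 0. Of 32851 promoters of the same length, 25.7% held at least 1 match, 7.11% at least 2, 1.97% at least 3 and 0.517% at least 4. Among 19 other zinc transporter genes with a window in the table, 10 held at least 1 match and 3 at least 2. The matches below are shown with 10 bases on either side, read along the + strand, with the core in capitals (a core on the − strand therefore appears as its reverse complement). Positions count from the RefSeq start of the gene.
Mt1, position -23, chr8:94179056-94179082: ggtcccgctgTGCACACtggcgctcca
Mt1, position 20, chr8:94179099-94179125: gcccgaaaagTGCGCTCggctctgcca
Mt2, position -223, chr8:94172385-94172411: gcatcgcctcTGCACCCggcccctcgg
Mt2, position -128, chr8:94172480-94172506: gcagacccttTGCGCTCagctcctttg
Mt2, position -50, − strand, chr8:94172558-94172584: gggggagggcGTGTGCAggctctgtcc
Mt2, position 4, − strand, chr8:94172612-94172638: aattcgggtcGTGCGCAggcccagggg
Slc30a1, position -43, − strand, chr1:191906728-191906754: cgggggttccGAGTGCAaagcaaagtt
Slc30a1, position 30, − strand, chr1:191906801-191906827: cctccgggccGAGCGCAgtcgccgcgg

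The remaining Mt1 match was at position 2, between the first and last of its 3. All 3 Mt1 matches lay on the + strand, both Slc30a1 matches lay on the − strand, and Mt2 had both orientations. Start sites differ between annotations. In GENCODE vM21 the Mt2 gene starts 46 bases after the RefSeq start, so that all 4 Mt2 matches lay upstream of it, whereas the Mt1 and Slc30a1 genes start 7 and 14 bases before it. On that annotation 2 of the 3 Mt1 matches fell inside the first exon of the longest-spanning transcript of Mt1 and upstream of its other 2 transcripts. Those 2 transcripts start at 94179211 and 94179241, beyond the end of the window at 94179138, so the bases just before them were not searched. The Mtf1 gene starts upstream of the window searched, and the absence of these letters from 1 window says nothing about whether MTF-1 acts on its own gene. The core of the antioxidant response element, written TGACNNNGC, which NRF2 binds, matched once in Mt2 and once in Slc30a1, and 12.4% of the promoters held it. These 2 matches are shown because Mt2 is known to respond to oxidative stress.
Mt2, position -79, chr8:94172529-94172557: aaagggggtgTGACTCAGCgcggggggtg
Slc30a1, position -82, − strand, chr1:191906689-191906717: gggcaccgggGCCTTGTCAcgctcgggtc

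A match to a short motif is a description of the letters and not evidence of a bound site. No binding was measured in these libraries.

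**Figure D1:**
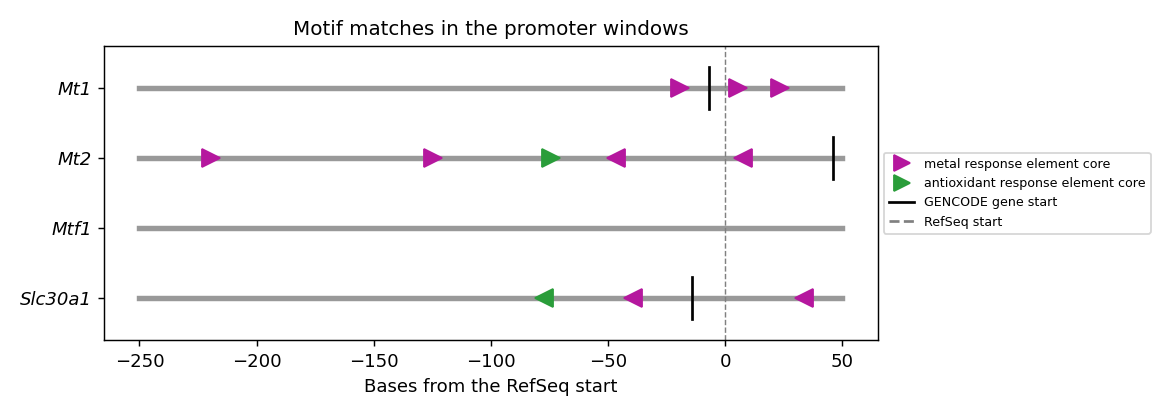
Motif matches in the 300-base promoter window of each gene, with the distance in bases from the RefSeq start on the horizontal axis. Arrowheads point right for the + strand and left for the − strand, black bars mark the GENCODE gene start where it lies in the window, and matches are seen in Mt1, Mt2 and Slc30a1 but not in Mtf1.

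The libraries held between 22791792 and 30677751 counts on genes, and TMM factors, which scale for library composition, were between 0.991 and 1.01. The 4 genes together took 2441 to 4890 counts per library. Fibroblast markers summed to between 4818 and 5914 TPM (a level scaled by transcript length), with 8 of 10 above a mean of 1 TPM. Epithelial markers summed to at most 1.69 TPM and endothelial markers to at most 0.43 TPM. Leukocyte markers, of which 2 of 6, Cd3e and Adgre1, were at 0 in every library, summed to 15.2 and 16.3 TPM with vehicle, to 14.6 and 16.9 with MASM7 and to 13.4 and 14.0 with MFI8, and their part in the results was not tested. The targets of the compounds were present, with Mfn1 between 57.0 and 63.5 TPM and Mfn2 between 79.1 and 87.3 TPM.

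Mt1 (ENSMUSG00000031765.8, chr8:94179082-94180327, GRCm38) encodes 1 of the metallothionein isoforms found in most tissues. Its level in CPM, counts scaled to the size of the library and so for comparing libraries and not genes, was 27.1 and 16.6 in vehicle replicates 1 and 2. The MASM7 libraries had 29.5 and 23.1 CPM of Mt1. The MFI8 libraries had 36.5 and 43.1 CPM of Mt1. Both MFI8 libraries were above all 4 others, and the vehicle and MASM7 libraries overlapped. The mean was 39.8 ± 4.72 CPM in the MFI8 group, 26.3 ± 4.53 in the MASM7 group and 21.8 ± 7.41 in the vehicle group (SD, n = 2 each). The lowest count behind these values was 417, in vehicle replicate 2, with an exact Poisson 95% interval of 378 to 459 that covers counting error only.

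Mt2 (ENSMUSG00000031762.7, chr8:94172664-94173568) encodes the metallothionein usually co-expressed with that of Mt1, and the end of Mt2 lies 5513 bases from the start of Mt1 on the same strand. It had 59.7 and 42.9 CPM with vehicle. It had 62.1 and 45.5 CPM with MASM7. It had 71.2 CPM in each of the MFI8 libraries. As for Mt1, both MFI8 libraries were highest and the other 2 groups interleaved. Its mean was 71.2 ± 0.0257 CPM in the MFI8 group, 53.8 ± 11.8 in the MASM7 group and 51.3 ± 11.9 in the vehicle group (SD, n = 2 each). An SD from 2 libraries is itself imprecise, and the small value with MFI8 was not taken as the error of Mt2. Exons of an antisense gene, Gm45774, cover 432 of the 588 exon bases of Mt2. The library kit does not mark strand, so reads from the 2 genes cannot be told apart where they overlap. Gm45774 itself was assigned 1 to 4 counts per library, against 1079 to 2197 for Mt2.

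Mtf1 (ENSMUSG00000028890.13, chr4:124802104-124849800), the gene for the zinc sensor, had 30.7 and 29.9 CPM with vehicle. The MASM7 libraries had 30.9 and 30.2 CPM and the MFI8 libraries 31.6 and 33.3 CPM. The 6 values spanned a narrow range, with the MFI8 libraries on top by a small margin. Means were 32.5 ± 1.25 CPM for MFI8, 30.5 ± 0.513 for MASM7 and 30.3 ± 0.597 for vehicle (SD, n = 2 each). The neighbouring gene 1110065P20Rik, on the opposite strand, overlaps 8.09% of the exon bases of Mtf1. It was assigned 382 to 662 counts per library, against 701 to 1029 for Mtf1. Its log2 fold change was -0.15 with MFI8 and 0.12 with MASM7, each against vehicle, and -0.27 with MFI8 against MASM7. The part of its reads in the level of Mtf1 was not tested.

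Slc30a1 (ENSMUSG00000037434.7, chr1:191906767-191913247), the gene for the plasma-membrane zinc exporter, was the lowest of the 4. Vehicle libraries had 11.4 and 7.67 CPM, MASM7 libraries had 10.3 and 6.31 CPM and MFI8 libraries had 12.7 and 10.8 CPM. Vehicle replicate 1 lay between the 2 MFI8 libraries, so MFI8 and vehicle overlapped, while both MFI8 libraries were above both MASM7 libraries. Mean Slc30a1 was 11.8 ± 1.36 CPM for MFI8, 8.29 ± 2.80 for MASM7 and 9.54 ± 2.64 for vehicle (SD, n = 2 each). Its lowest count was 192, with an exact Poisson 95% interval of 166 to 221. The antisense gene 1700034H15Rik overlaps 8.92% of the exon bases of Slc30a1 and was assigned 2 to 13 counts per library.

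**Figure D2:**
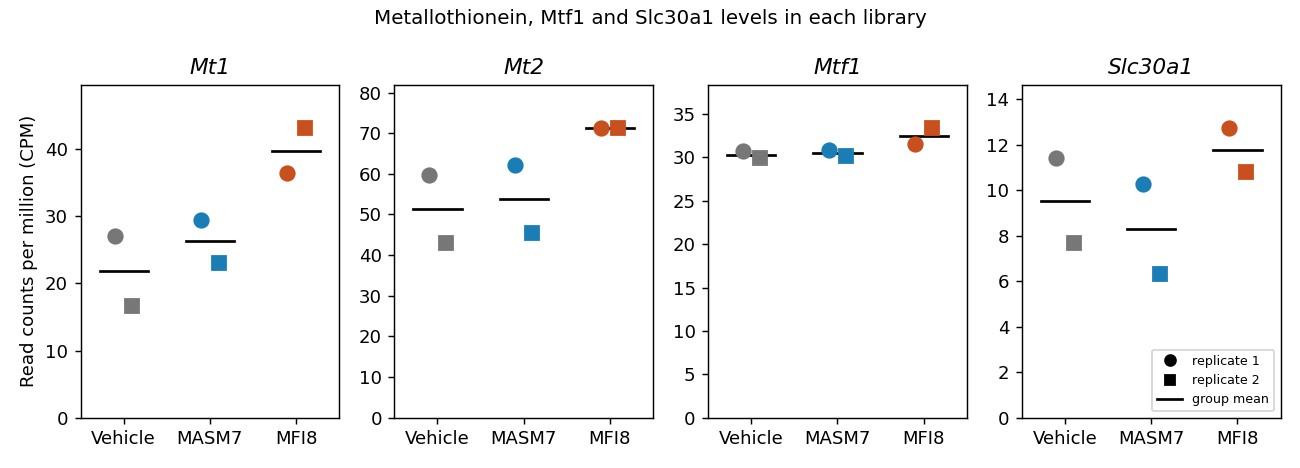
Level of each gene in CPM (vertical axis from 0) in the 6 libraries, by group, with circles for replicate 1, squares for replicate 2 and a bar at the group mean. The 2 MFI8 libraries are the highest for Mt1, Mt2 and Mtf1, and replicate 2 is below replicate 1 for Mt1, Mt2 and Slc30a1 with vehicle and with MASM7.

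In the vehicle and MASM7 groups the replicates differed more for Mt1, Mt2 and Slc30a1 than for most genes. On the log2 CPM scale the 2 vehicle libraries were 0.70 apart for Mt1, and 5.69% of the tested genes were further apart in that group. The gap was 0.48 for Mt2 and 0.57 for Slc30a1, against 0.04 for Mtf1 and a median of 0.12 over all tested genes. With MASM7 the gaps were 0.35 for Mt1, 0.45 for Mt2 and 0.70 for Slc30a1, again with replicate 1 above replicate 2, and the median gap was 0.10. With MFI8 the order of the replicates was the opposite for Mt1, with a gap of 0.24, the Mt2 gap was 0.0007, and Slc30a1 was again higher in replicate 1, by 0.24, where the median gap was 0.11. The spread between vehicle libraries was therefore a large part of what each fold change of these genes was measured against. In these bulk samples, fewer cells with a transcript and less of it per cell cannot be told apart.

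Levels were compared between genes in TPM. Mt2 was the most abundant of the 4, at 259 to 436 TPM over the 6 libraries and a mean of 355, which 0.763% of listed genes exceeded. Mt1 had 47.3 to 125 TPM, Mtf1 11.8 to 13.5 TPM and Slc30a1 4.20 to 8.73 TPM. The order Mt2, Mt1, Mtf1, Slc30a1 held in every library, with no overlap between neighbours. In TPM, Mt2 exceeded Mt1 by 5.48 times in vehicle replicate 2 and by 3.50 times in MFI8 replicate 2, the 2 extremes. Where Gm45774 overlaps Mt2, reads may have been left uncounted while the full exon length still entered TPM, since the strand setting is not given in the sources used here. The level of Mt2 and its ratio to Mt1 may then be too low, and this was not tested. The ratio also depended on the length given to Mt1. The deposited TPM values matched an exon length of 1246 bases for Mt1, which counts its introns because an annotated transcript of 1 exon runs through them, whereas the transcript with 3 exons has 549 bases. With that transcript against the longer Mt2 transcript, of 511 bases, the ratio ran from 1.77 to 2.78, so Mt2 stayed above Mt1 in every library. Without a length, the ratio of Mt2 to Mt1 counts was 1.95 and 1.65 for MFI8, 2.11 and 1.97 for MASM7 and 2.21 and 2.59 for vehicle. Both vehicle libraries were above the other 4 in this ratio, and 0.333 is the smallest two-sided p that an exact permutation test of 2 libraries against 2 allows.

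The first comparison, MFI8 against vehicle, asks how the transcriptome of these cells differed with the mitofusin inhibitor. All 6 libraries were of wild-type cells, so whether a difference depended on the mitofusins was not tested. With MFI8 the mean level of Mt1 was 1.84-fold that of vehicle (95% confidence interval 1.36 to 2.48) and that of Mt2 1.39-fold (1.09 to 1.77). Mtf1 was at 1.07-fold (0.958 to 1.20) and Slc30a1 at 1.23-fold (0.859 to 1.77). None of the 4 passed an adjusted p of 0.05. In edgeR's quasi-likelihood test, adjusted over all genes by Benjamini-Hochberg, 0 of 14290 genes did (0%), 1409 had an unadjusted p under 0.05, and DESeq2's Wald test called 47 genes, none of them among these 4. The log2 fold change of Mt1 was 0.88 (SE 0.195), with an adjusted p of 0.265 in edgeR's quasi-likelihood test. Only 0.441% of genes had a smaller p than Mt1. For Mt2 the log2 fold change was 0.48 (SE 0.157), adjusted p = 0.409 by edgeR. For Mtf1 it was 0.10 (SE 0.0728), adjusted p = 0.675 by edgeR, and for Slc30a1 0.30 (SE 0.233), adjusted p = 0.692 by edgeR. Mt1 and Mt2 were 2 of the 4 with an unadjusted p under 0.05 and a higher level, where 5.21% of all tested genes were, and 4.65% were on the lower side. Libraries of the 2 groups did not overlap for Mt1, Mt2 and Mtf1, with MFI8 higher, as for 20.9% of all genes. That share shows how often 2 libraries against 2 separate.

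The size of these differences depended on the vehicle libraries. Without vehicle replicate 2 the log2 fold change was 0.56 for Mt1, 0.25 for Mt2 and 0.04 for Slc30a1. Without vehicle replicate 1 the values were 1.27, 0.73 and 0.61. Direction was the same for all 4 genes whichever library was left out.

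**Figure D3:**
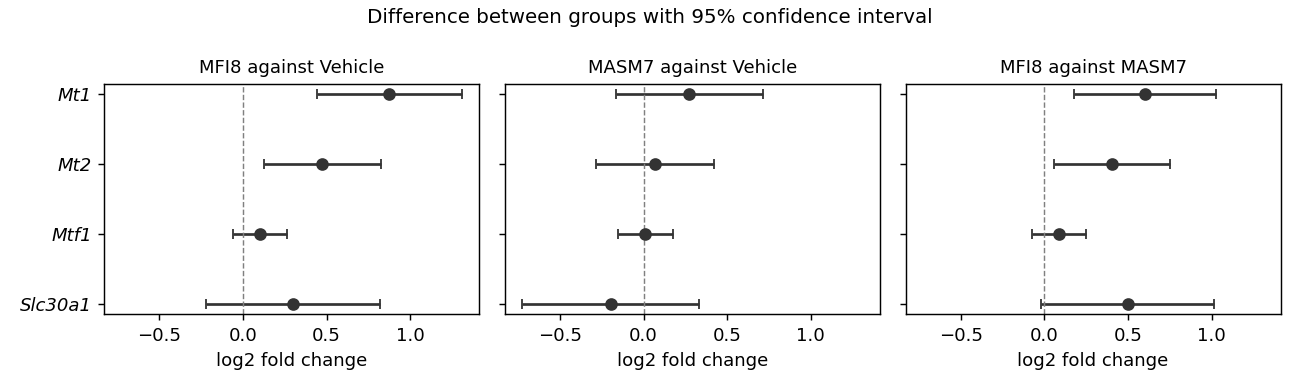
Log2 fold change of each gene (horizontal axis) in the 3 comparisons, with points for the edgeR estimate and bars for its 95% confidence interval. The intervals of Mt1 and Mt2 lie above 0 in both comparisons of MFI8, those of Mtf1 include 0 throughout, and with MASM7 against vehicle all 4 intervals include 0.

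The second comparison, MASM7 against vehicle, asks the same of the activator. No difference of the 4 genes passed the test. Mt1 was at 1.21-fold of vehicle (95% confidence interval 0.891 to 1.64), Mt2 at 1.05-fold (0.822 to 1.34), Mtf1 at 1.01-fold (0.901 to 1.13) and Slc30a1 at 0.872-fold (0.604 to 1.26). Adjusted p-values from edgeR's quasi-likelihood test were 0.63 for Mt1, 0.896 for Mt2, 0.97 for Mtf1 and 0.78 for Slc30a1. Over all genes that test called 0 (0%), with 1458 at an unadjusted p under 0.05, and DESeq2's Wald test called 3. Of the 4 genes, 0 had an unadjusted p under 0.05, against 5.32% of all genes higher and 4.88% lower. The libraries of the 2 groups overlapped for all 4 genes, whereas 21.2% of genes did not overlap with MASM7 higher and 21.6% with MASM7 lower. Directions were not stable: the log2 fold change of Mt1, 0.27, became -0.04 without vehicle replicate 2. That of Mt2, 0.07, became -0.15 without vehicle replicate 2 and -0.17 without MASM7 replicate 1. That of Slc30a1, -0.20, became 0.11 without vehicle replicate 1 and 0.11 without MASM7 replicate 2.

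The third comparison set the inhibitor against the activator. The doses differ, 20 μM against 1 μM, so compound and dose cannot be told apart. Levels with MFI8 relative to MASM7 were 1.52-fold for Mt1 (95% confidence interval 1.13 to 2.03), 1.32-fold for Mt2 (1.04 to 1.68), 1.41-fold for Slc30a1 (0.988 to 2.02) and 1.06-fold for Mtf1 (0.952 to 1.19). For all 4 genes both MFI8 libraries exceeded both MASM7 libraries, as for 19.6% of all genes, and for 19.6% both were below. In edgeR's quasi-likelihood test the adjusted p was 0.569 for Mt1, 0.649 for Mt2, 0.811 for Mtf1 and 0.691 for Slc30a1. That test called 0 genes (0%), with 1026 at an unadjusted p under 0.05, while DESeq2's Wald test called 24 genes. Mt1 and Mt2 had an unadjusted p under 0.05 on the higher side, where 4.23% of all genes were, and 2.95% were on the lower side. The difference in Slc30a1 depended on the MASM7 libraries: its log2 fold change, 0.50, was 0.19 without MASM7 replicate 2 and 0.89 without MASM7 replicate 1. For Mt2, 0.40 became 0.20 without MASM7 replicate 2 and 0.65 without MASM7 replicate 1. This comparison shares its MFI8 libraries with the first and its MASM7 libraries with the second, so the 3 are not independent.

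The other metallothionein genes were close to undetected. Mt3, known mainly from brain, had at most 10 counts in a library, and Mt4, known from stratified epithelia, at most 4, so neither was tested. The metallothionein mRNA of these cells was therefore almost wholly that of Mt1 and Mt2, whose summed level was 307 to 561 TPM.

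Slc30a1 was a minor transcript among the zinc transporters. The SLC30 family moves zinc out of the cytosol, to the outside or into organelles, and the SLC39 family brings it into the cytosol. Of 24 genes of the 2 families, 16 were tested and Slc30a1 ranked 15 by mean TPM, at 6.67, above only Slc30a3 among those tested. The most abundant was Slc39a1, a plasma-membrane importer, at 188 TPM. It was followed by Slc30a4, an exporter of intracellular vesicles, at 168 TPM, and Slc39a6 at 109 TPM. Slc30a2, Slc30a8 and Slc30a10 had at most 2 counts in any library.

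**Figure D4:**
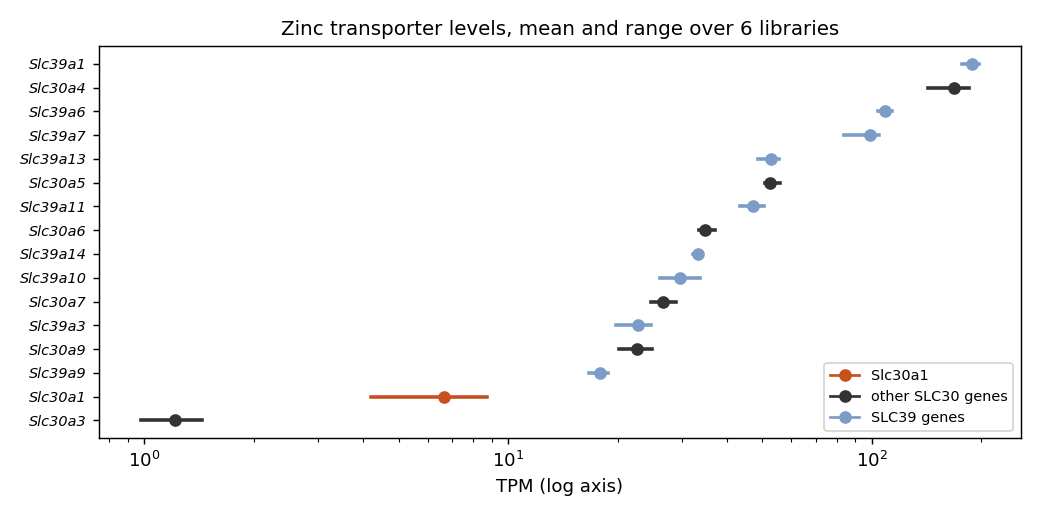
Level in TPM (log axis) of the 16 zinc transporter genes tested, with points at the mean and lines from the lowest to the highest of the 6 libraries. Slc30a1, at 4.20 to 8.73 TPM, lies below 14 of the other tested transporters, and its line is wide relative to its mean.

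With MFI8 the 15 other transporters tested had log2 fold changes between -0.18, for Slc39a10, and 0.33, for Slc30a3. Of the 6 other SLC30 genes tested, 0 passed the adjusted threshold and 0 had an unadjusted p under 0.05 with MFI8. Their median log2 fold change was -0.05, beside 0.0027 over all genes, and the libraries of MFI8 and vehicle did not overlap for 3 with MFI8 lower, as for 19.3% of all genes, and for 1 with MFI8 higher, as for 20.9%. The smallest p was that of Slc30a5, a zinc transporter of the secretory pathway, with a log2 fold change of -0.12 (adjusted p = 0.515 by edgeR). With MASM7, 1 of the 6 had an unadjusted p under 0.05, beside 5.32% of all tested genes higher and 4.88% lower. It was Slc30a9, with 81.2 and 86.6 CPM with vehicle and 76.6 and 71.7 CPM with MASM7, a log2 fold change of -0.18 and an adjusted p of 0.473 by edgeR. Its MFI8 libraries, at 80.7 and 75.6 CPM, were also below both vehicle libraries, with a log2 fold change of -0.10. Slc30a7, a Golgi zinc transporter, had -0.11 with MASM7 (adjusted p = 0.559 by edgeR). Of the 9 SLC39 genes tested, 1 had an unadjusted p under 0.05 in each comparison with vehicle, a count near the background of 5.21% higher and 4.65% lower with MFI8 and of 5.32% and 4.88% with MASM7. That gene was Slc39a7, which releases zinc from the endoplasmic reticulum. Its vehicle libraries had 70.5 and 60.7 CPM, its MASM7 libraries 74.6 and 77.6 CPM and its MFI8 libraries 72.7 and 74.9 CPM. Both treatments were above vehicle without overlap, with log2 fold changes of 0.21 with MASM7 and 0.17 with MFI8 and adjusted p-values of 0.473 and 0.493 by edgeR. The MFI8 and vehicle libraries did not overlap for 5 of the 9 with MFI8 higher and for 0 with MFI8 lower, where all genes had 20.9% and 19.3%. Slc39a3, a plasma-membrane importer, had a log2 fold change of 0.21 with MFI8 and Slc39a13 had 0.13 with MASM7. The median over the SLC39 genes was 0.05 with MFI8 and 0.04 with MASM7, where all genes had 0.0007 with MASM7.

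Copper, which metallothioneins also bind, was represented by 11 tested genes, of which 0 had an unadjusted p under 0.05 with either compound. Over all tested genes the shares were 5.21% higher and 4.65% lower with MFI8 and 5.32% and 4.88% with MASM7, so a count of 0 among 11 lay near the background. Their median log2 fold change was 0.01 with MFI8 and -0.02 with MASM7. Ccs, the copper chaperone of superoxide dismutase, had 0.12 with MFI8 and 0.13 with MASM7. Atox1, a copper chaperone of the secretory pathway, had 0.14 with MASM7, and Commd1 had -0.08 with MFI8. Atp7b, a copper exporter known from liver, had at most 7 counts and was not tested.

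Genes known to respond to oxidative stress through NRF2 were listed because Mt1 and Mt2 are known to respond to it too. With MFI8, 6 of 15 had an unadjusted p under 0.05 on the higher side, where 5.21% of all tested genes were, and 0 on the lower, where 4.65% were. None of the 15 passed the adjusted threshold in edgeR's quasi-likelihood test. The median log2 fold change was 0.14. Hmox1, heme oxygenase 1, had 68.5 and 121 CPM in the MFI8 libraries, 44.9 and 54.3 in the MASM7 libraries and 35.0 and 41.4 in the vehicle libraries. The MFI8 libraries were far apart but both above all others, and the log2 fold change against vehicle was 1.31 (SE 0.216), adjusted p = 0.0924 by edgeR. Slc7a11, the cystine importer that feeds glutathione synthesis, had 19.8 and 24.3 CPM in the MFI8 libraries, 13.6 and 12.4 in the MASM7 libraries and 11.7 and 12.8 in the vehicle libraries. Its log2 fold change was 0.86 (SE 0.120), adjusted p = 0.0924 by edgeR, and only 0.014% of genes had a smaller p. Slc7a11 was the 1 listed gene that DESeq2's Wald test called with MFI8 against vehicle. With MASM7, 1 of the 15 had an unadjusted p under 0.05 (4.88% of all genes on that side), Prdx1, a peroxiredoxin, at -0.15 (adjusted p = 0.473 by edgeR), and Abcc1, a glutathione-conjugate exporter, had 0.11. Prdx1 was also lower with MFI8, at -0.10, where 2 genes of the list were below 0 and 13 above. The NRF2 median with MASM7 was 0.01. The metallothionein differences with MFI8 thus stood in the same libraries as those of Hmox1 and Slc7a11, and the part of oxidative stress in the metallothionein levels was not tested.

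Glucocorticoid receptor targets were listed because steroids are known inducers of Mt1 and Mt2. With MFI8, 3 of 9 tested had an unadjusted p under 0.05 on the higher side, beside 5.21% of all tested genes, with a median log2 fold change of 0.06 over the 9. Sgk1, a serum- and glucocorticoid-regulated kinase, had 0.24 (adjusted p = 0.379 by edgeR) and Per1, a clock gene, had 0.29 (adjusted p = 0.392 by edgeR). The third was Dusp1, a MAP kinase phosphatase, named after its value was seen, at 0.50. Fkbp5, a gene strongly induced by glucocorticoids in many cells, had -0.05 and Tsc22d3 had 0.23, both named after their values were seen, and neither had an unadjusted p under 0.05. With MASM7, Klf9 alone of the 9 had an unadjusted p under 0.05 (4.88% of all genes on that side), with 16.3 and 20.1 CPM with vehicle against 11.8 and 13.8 with MASM7, a log2 fold change of -0.51 and an adjusted p of 0.466 by edgeR. Sgk1 had 0.14, Per1 0.20 and Dusp1 -0.29 with MASM7. The median over the list was 0.07.

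Heat shock genes, which respond to misfolded protein and to heavy metals, gave 1 of 10 with an unadjusted p under 0.05 with MFI8 and 0 with MASM7. The count with MFI8 was near the background, since 5.21% of all tested genes were called higher and 4.65% lower. The 1 gene was Hspa1a, with 2.31 and 15.1 CPM in the MFI8 libraries, 1.79 and 2.10 in the MASM7 libraries and 1.67 and 2.94 in the vehicle libraries. The difference was that of MFI8 replicate 2 alone, since MFI8 replicate 1 lay within the vehicle range. Its log2 fold change was 1.94 (SE 0.658), adjusted p = 0.412 by edgeR. Hspa1b, its near-identical copy, had 60.5 and 135 CPM with MFI8 against 60.9 and 72.7 with vehicle, and reads of the pair may be split between them. Hspd1, a mitochondrial chaperonin, had -0.06 with MASM7, and Hspb1, a small heat shock protein, had -0.27 with MASM7 and 0.66 with MFI8 at levels of at most 1.17 CPM. The list median was -0.02 with MASM7 and 0.14 with MFI8. MFI8 replicate 2 was thus the library with the most Hspa1a, Hspa1b and Hmox1, and also the one with the most Mt1, but not the one with the most Slc30a1. Without it the log2 fold change of Mt1 against vehicle was 0.75.

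**Figure D5:**
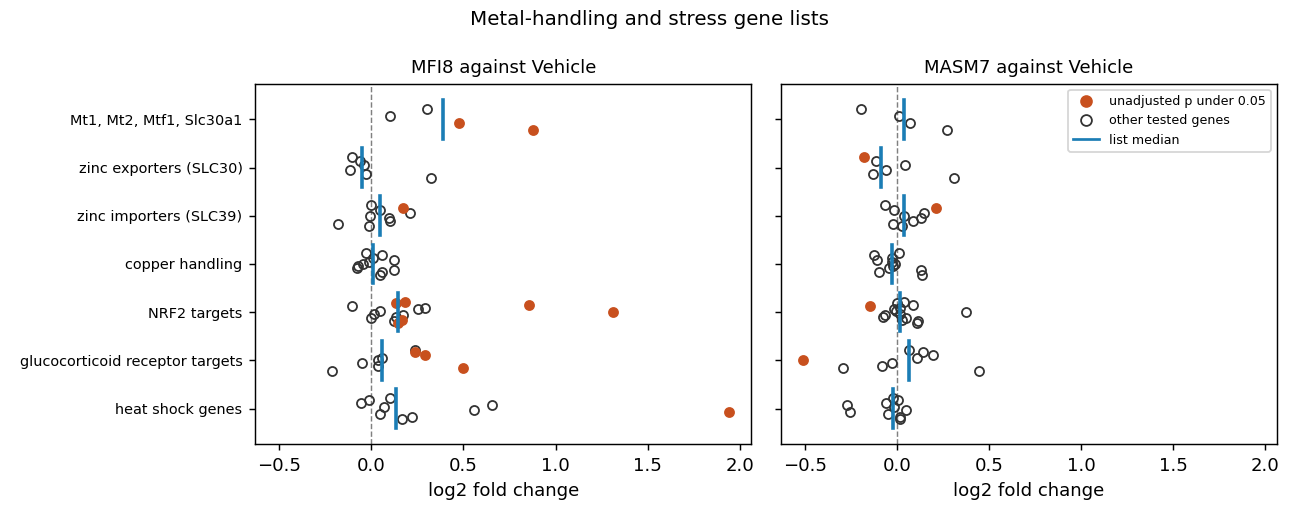
Log2 fold change (horizontal axis) of every tested gene in 7 lists, for MFI8 against vehicle and MASM7 against vehicle, with filled points at an unadjusted p under 0.05 and a bar at the list median. With MFI8 the median of Mt1, Mt2, Mtf1 and Slc30a1 is 0.39 and that of NRF2 targets 0.14, while both zinc transporter families and the copper genes lie around 0.

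The genes most like Mt1 and Mt2 across the 6 libraries were found by Pearson's r of log2 CPM over the 8889 tested genes with a mean of at least 10 CPM. This is a description over 6 points that share 3 treatments. For Mt1 they were Myc (r = 0.992), Impact (0.990), Jun (0.987), Atp6v0b (0.978) and Capn2 (0.976). Myc, a growth-promoting transcription factor, had 197 and 203 CPM in the MFI8 libraries, 181 and 168 in the MASM7 libraries and 171 and 145 in the vehicle libraries. Jun, an AP-1 subunit, had 297 and 324 CPM in the MFI8 libraries, 279 and 257 in the MASM7 libraries and 283 and 230 in the vehicle libraries. In both, as in Mt1, replicate 2 was lower in the vehicle and MASM7 groups and higher with MFI8, over a smaller range. For Mt2 the nearest were Cttnbp2nl (r = 0.993), Bhlhe40 (0.984), Capn2 (0.984), Dpp7 (0.980) and Kansl3 (0.979). Bhlhe40, a transcriptional repressor, had 51.9 and 51.0 CPM in the MFI8 libraries, 46.2 and 40.2 in the MASM7 libraries and 48.3 and 38.7 in the vehicle libraries. Between the 2 metallothioneins r was 0.946, and Slc30a1 had 0.897 with Mt2 and 0.714 with Mt1. Mtf1 had 0.833 with Mt2 and 0.913 with Mt1.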

How the data were processed

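PolyA RNA of 6 libraries was prepared with an Illumina TruSeq kit that does not mark strand. Per the labels, the authors used Trimmomatic, STAR, featureCounts and DESeq2 with GRCm38, and deposited raw counts per gene, whole numbers that were tested here. The authors also deposited normalized counts, a signal equal to counts divided by 1 size factor per library (0.855 to 1.15), used here only as a check. The authors' deposited TPM values were used for levels between genes. Their gene lengths equalled the union of GENCODE vM21 exons within 1% for 98.5% of 10107 genes. The annotation release and strand setting are not given in the sources used here. Comparison columns were not present in these tables.

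Genes passing edgeR's filterByExpr (14290 of 55291) were fitted in edgeR 4.0.16 (R 4.3.3) with TMM factors, 1 coefficient per group and all 6 libraries, and compared by the quasi-likelihood F test, two-sided, with p-values adjusted by Benjamini-Hochberg (threshold 0.05). A standard error was the log2 fold change over the square root of F. TMM factors entered CPM, and a prior count of 2 was added for log2 CPM. The script was tested on simulated counts. Alternatives were DESeq2 1.42.0, limma 3.58.1 on log2 TPM with pseudocounts of 1 and 0.1, other scalings and filters, GC and length offsets, the replicate number as a block, and leaving out each library. Fold changes are on the fitted count scale.

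The genes and lists were chosen with earlier results of these data known. In each list the text names the 2 tested genes with the smallest p in each comparison with vehicle. For Mt1 and Mt2 it names the 5 nearest genes by r, and for zinc transporters the 3 with the highest mean TPM. Cell type markers are given as sums. Other genes are named with that stated, or because they overlap, share reads with or belong to the family of a gene described. Promoter sequence came from RefSeq (GRCm38.p6), and of the 23 other zinc transporters 19 matched it and were searched.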

Additional observations from a re-analysis of the deposited data

How the results depend on the processing

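Each log2 fold change was recomputed under 18 alternatives, and for MFI8 against vehicle and MFI8 against MASM7 all 4 genes kept their direction in every one. With no filter beyond 1 count in any library, Mt1 and Mt2 passed the threshold with MFI8 against vehicle (0.88, edgeR adjusted p = 1.8e-16, and 0.48) and against MASM7 (0.59 and 0.39). For MFI8 against vehicle the SE of Mt1 was then 0.0968, beside 0.195 in the main fit. That of Mtf1 was 0.0942, beside 0.0728. The cause of these changes was not tested. With the replicate block, the replicate number as a term in edgeR, they passed with MFI8 against vehicle (0.91, adjusted p = 8.44e-06, and 0.50, adjusted p = 0.000105) and against MASM7 (0.63 and 0.43), where Slc30a1 also passed (0.53, adjusted p = 0.00832). With GC and length offsets added to the block the values were 0.92, 0.55, 0.67, 0.48 and 0.49. The labels do not say that a number marks a shared culture or day. Deviations of same-numbered libraries correlated at 0.188, 0.152 and 0.165 over 14290 genes (0.508 to 0.621 over the 7145 more highly expressed), a hint from the data and not from the design. In DESeq2 with the block the adjusted p of Mt1 and Mt2 with MFI8 against vehicle was NA, so the threshold was not applied to them. Their log2 fold changes there were 0.91 and 0.50. With MFI8 against MASM7 the adjusted p was 0.616 for Mt1, 0.428 for Mt2 and 0.225 for Slc30a1, so none passed in that comparison.

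For MASM7 against vehicle directions turned. Without vehicle replicate 2 the value was -0.0443 for Mt1, -0.15 for Mt2 and -0.0113 for Mtf1, and without MASM7 replicate 1 it was -0.17 for Mt2 and -0.0063 for Mtf1. Slc30a1 became 0.1137 without MASM7 replicate 2 and 0.1102 without vehicle replicate 1. In limma on TPM, Mtf1 was -0.0053 and -0.0057 with pseudocounts of 1 and 0.1. Leaving out 1 library in turn gave -0.0443 to 0.66 for Mt1, -0.17 to 0.33 for Mt2, -0.0113 to 0.0299 for Mtf1 and -0.59 to 0.11 for Slc30a1. For MFI8 against vehicle the ranges were 0.56 to 1.27, 0.25 to 0.73, 0.06 to 0.14 and 0.04 to 0.61. For MFI8 against MASM7 they were 0.44 to 0.79, 0.20 to 0.65, 0.05 to 0.13 and 0.19 to 0.89.

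Counts of genes past the threshold, 0 in each comparison, were 256 (MFI8 against vehicle), 127 (MASM7 against vehicle) and 168 (MFI8 against MASM7) without the filter, 720, 554 and 439 with the block, 595, 152 and 675 with offsets and the block, 47, 3 and 24 in DESeq2, and 224, 193 and 112 in DESeq2 with the block. With only the 2 groups compared they were 1 for MASM7 against vehicle and 2 for MFI8 against MASM7. Leaving out a library gave 0 to 24, 0 to 2 and 0 to 22, the highest without MFI8 replicate 1 for both comparisons of MFI8. Of the listed genes other than the 4, the counts in the same order of comparisons were 6, 2 and 6 without the filter, 11, 3 and 8 with the block, 10, 2 and 13 with offsets and the block, 3, 1 and 5 in DESeq2 with the block, and 0 to 5 for the comparisons of MFI8 when a library was left out. DESeq2 without the block called 1 with MFI8 against vehicle and 2 with MFI8 against MASM7.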
